A study of Mus musculus with 19 samples.

Results

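Lin28a, Lin28b, Hmga1, Hmga2 and Arid3a are genes known for high activity in fetal and other early cells, and their RNA and the open chromatin around them are described here in mouse blood stem and progenitor cells. The 5 genes were chosen by symbol, and each matched 1 of the 25124 genes of the exon count table. All cells came from C57BL/6 mice, with no treatment or engineered allele named, either from adult bone marrow at 12 weeks or from fetal liver at E14.5 (embryonic day). At each age hematopoietic stem cells (HSC; Kit+ Sca1+ CD48- CD150+ Flt3-) and lymphoid primed multipotent progenitors (LMPP; Kit+ Sca1+ CD48+ CD150- Flt3+) were sorted by flow cytometry after lineage-positive cells were gated out. CD11b was part of the exclusion gate for adult cells only. RNA-seq covered 3 adult HSC, 2 fetal HSC, 3 adult LMPP and 3 fetal LMPP libraries, which the submitters call biological replicates, and ATAC-seq gave 1 peak list per group from 2 libraries each. The labels do not say whether the libraries came from separate animals or from pools, so the p-values measure the spread between these libraries, which may be partly technical.

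Lin28a and Lin28b are paralogous RNA-binding proteins. They bind precursors of the let-7 microRNAs, block their processing and mark them for decay, and mature let-7 in turn represses messenger RNAs that include those of Lin28b, Hmga2 and Arid3a. Hmga1 and Hmga2 are small AT-hook proteins that bind the minor groove of AT-rich DNA and bend chromatin, and Hmga2 is known for supporting self-renewal of fetal stem cells. Arid3a, also called Bright, is a transcription factor with an AT-rich interaction domain that is described in fetal-type B lymphopoiesis. Lin28b is the paralog known for the fetal programme of blood cells.

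The microRNAs that connect these genes are recognized through a shared seed. All 9 mature let-7 5p sequences in RefSeq's mouse table (GRCm38.p6), miR-98 included, carry the same bases 2 to 8, given in capitals for 4 of them.
mmu-let-7a-5p: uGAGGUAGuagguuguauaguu
mmu-let-7d-5p: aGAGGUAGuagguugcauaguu
mmu-let-7g-5p: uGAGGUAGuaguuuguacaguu
mmu-miR-98-5p: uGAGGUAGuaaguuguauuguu

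Lin28 proteins are known to hold the loop of the precursor through a GGAG motif. The motif was found downstream of the 5p arm in 9 of the 12 let-7 hairpins of the same table and not in those of let-7b, let-7c-2 and miR-98. One hairpin with it (chr9:106178840-106178927, plus strand) and one without (chr15:85707319-85707403, plus strand) are printed whole, with GGAG in capitals.
Mirlet7g: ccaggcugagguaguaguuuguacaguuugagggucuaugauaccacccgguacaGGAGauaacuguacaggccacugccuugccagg
Mirlet7b: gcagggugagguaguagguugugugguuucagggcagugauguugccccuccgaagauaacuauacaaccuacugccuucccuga

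The exon counts do not measure mature let-7. Of the 12 let-7 genes in the count table, 2 had any count in any library, and the highest count was 5.5.

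The libraries held 19799380 (adult LMPP 1) to 64783869 (fetal LMPP 1) exon counts. Levels are given as CPM, counts scaled to a common library size, after TMM normalization, and 3 counts in a library corresponded to 0.0498 to 0.152 CPM. Log2 CPM correlated at 0.934 to 0.977 between libraries of a group and at 0.829 to 0.927 between groups. Adult HSC 3, adult LMPP 3 and fetal LMPP 1 stood apart from their groups. On the first component of the deviations from the group means (36.8% of their variance) these 3 scored 41.7 to 82.0, whereas the other 8 libraries lay between -41.3 and 1.64. Markers of the sorted cells were checked against the labels. The summed level of 10 HSC markers was 1796 to 3147 CPM in HSC libraries and 383 to 1002 CPM in LMPP libraries, and that of 8 LMPP markers was 59.7 to 162 CPM against 1308 to 4031 CPM. Of the LMPP markers, however, Dntt was at 0 in all fetal LMPP libraries. Il7r was at 0 in all adult HSC libraries and Ccr9 in all fetal HSC libraries, which goes with the labels.

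Lin28a, the paralog known from pluripotent cells (chr4:134003330-134018816, minus strand, mm10), was at or near 0 throughout. It had 0 counts in 9 of the 11 libraries, 4 counts (0.148 CPM) in fetal LMPP 2 and 5 counts (0.212 CPM) in fetal LMPP 3. A level up to the 3-count limit of each library would not have been seen. It did not pass the filter on low counts and entered no test.

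Lin28b (chr10:45376619-45470201, minus strand) separated the ages most widely of the 5 genes. Its level was 0.793, 0.195 and 0.150 CPM in adult HSC and 29.5 and 21.0 CPM in fetal HSC. No count was recorded for it in any of the 3 adult LMPP libraries, and fetal LMPP stood at 27.7, 47.6 and 35.2 CPM. Every fetal library was thus far above every adult library, and the adult HSC values rest on 25, 6 and 9 counts.

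Hmga1 (chr17:27556604-27563672, plus strand) was abundant in all 4 groups and higher in fetal ones. Adult HSC stood at 167, 152 and 140 CPM and fetal HSC at 619 and 568 CPM. Adult LMPP stood at 235, 203 and 185 CPM and fetal LMPP at 912, 952 and 855 CPM. The 4 groups did not overlap, and the spread within each was small beside the distance between ages.

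Hmga2 (chr10:120361268-120476469, minus strand) was low, yet counted, in adult cells. It reached 3.39, 3.84 and 1.43 CPM in adult HSC and 109 and 131 CPM in fetal HSC. In LMPP the values were 16.3, 10.7 and 8.58 CPM in adult marrow and 135, 276 and 206 CPM in fetal liver. The lowest fetal value lay well above the highest adult one, and adult LMPP lay above adult HSC without overlap.

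Arid3a (chr10:79927043-79955018, plus strand) varied more between the libraries of a group than Hmga1 did. Its level was 11.3, 11.1 and 2.66 CPM in adult HSC and 34.0 and 58.6 CPM in fetal HSC. It was 7.88, 9.25 and 3.11 CPM in adult LMPP and 37.3, 90.1 and 93.4 CPM in fetal LMPP. The ages did not overlap, whereas HSC and LMPP of the same age did. The low value of each of the 3-library groups belonged to a library that stood apart (adult HSC 3, adult LMPP 3, fetal LMPP 1). Those libraries were also the lowest of their groups for Hmga2.

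**Figure D1:**
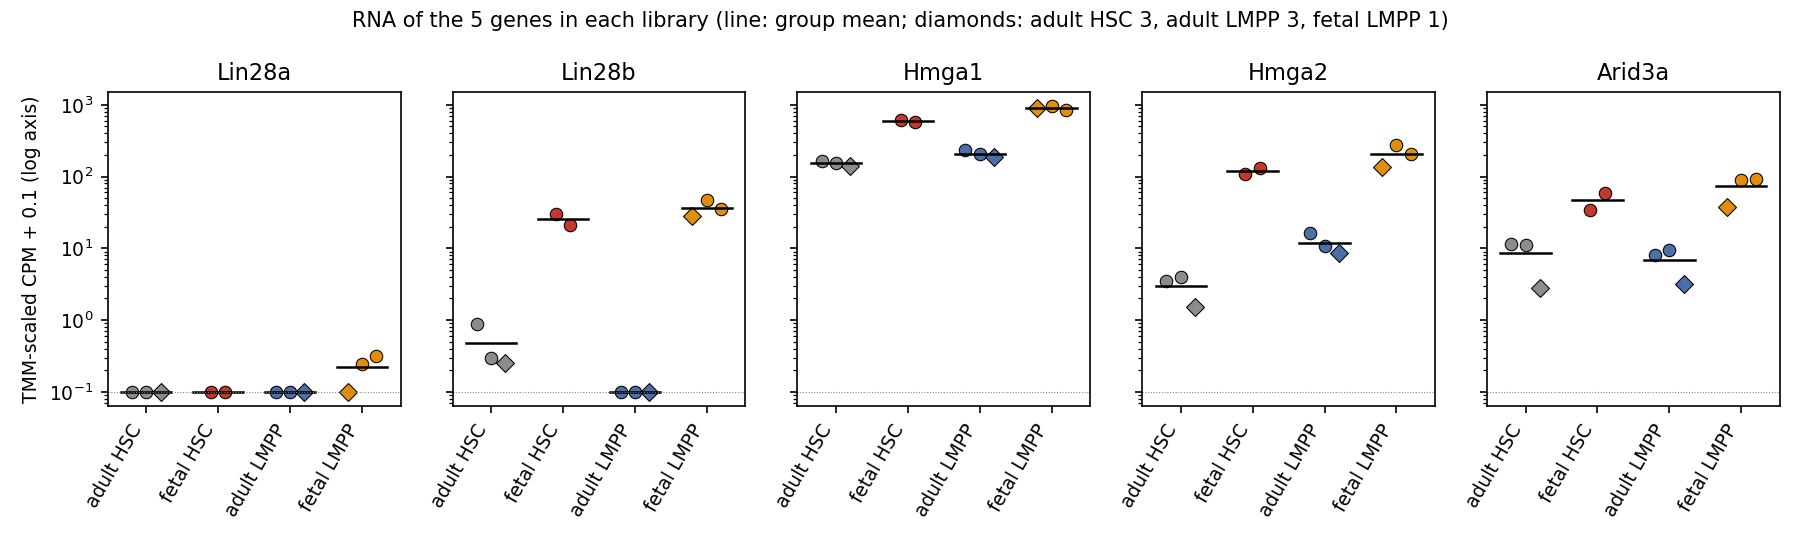
RNA level of each of the 5 genes (TMM-scaled CPM plus 0.1, log axis) in every library of the 4 groups; lines are group means and diamonds mark adult HSC 3, adult LMPP 3 and fetal LMPP 1. Lin28b, Hmga1, Hmga2 and Arid3a are higher in every fetal than in every adult library, and Lin28a lies at the bottom of the axis in 9 of 11 libraries.

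Because CPM grows with transcript length, genes were ranked against each other as CPM per kilobase of the listed transcript. Hmga1 led every group, at 76.6 ± 6.72 CPM per kilobase in adult HSC, 297 ± 18.0 in fetal HSC, 104 ± 12.7 in adult LMPP and 454 ± 24.6 in fetal LMPP (SD, n = 3, 2, 3 and 3). In fetal HSC it was followed by Hmga2 (31.4), Arid3a (8.65) and Lin28b (4.68), and no neighbours in that order overlapped between libraries. Fetal LMPP had the same order with 54.0, 13.8 and 6.83 CPM per kilobase, but the libraries of Arid3a (6.97 to 17.5) and Lin28b (5.14 to 8.83) overlapped. In adult LMPP Hmga2 (3.11) lay above Arid3a (1.26) without overlap, and in adult HSC Arid3a (1.57) and Hmga2 (0.758) did overlap. Lin28b was the lowest of the 4 in both adult groups, at 0.0703 in HSC and 0 in LMPP.

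The first comparison asked which genes differ between fetal and adult HSC. Of the 4 genes tested, 3 were higher in fetal HSC (Lin28b, Hmga2 and Hmga1) and none was lower, where 2.07% of all 14720 genes tested were higher and 2.89% lower (edgeR's quasi-likelihood test, Benjamini-Hochberg adjusted p below 0.05). Lin28b rose by 6.11 ± 0.66 on the log2 scale (SE, adjusted p = 0.00131). Hmga2 rose by 5.39 ± 0.46 (adjusted p = 0.000156) and Hmga1 by 1.96 ± 0.14 (adjusted p = 5.07e-05), about 3.88-fold. These 3 calls held under all 13 other settings tried. Arid3a differed by 2.47 ± 0.64, with adjusted p = 0.0552, and so was not called. It was called in 4 of 13 other settings, with adjusted p = 0.0017 by DESeq2 and 0.0463 with no filter on low counts. Without the 3 libraries that stood apart its difference was 2.03 with adjusted p = 0.000857, and with a term for them it was 2.18 with adjusted p = 0.000284. The libraries of the 2 ages did not overlap for any of the 4 genes, which also held in the upward direction for 20.8% of all genes tested.

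In LMPP all 4 tested genes were higher in the fetal libraries, where 7.08% of all genes tested were higher and 8.29% lower. Lin28b was at least 331-fold higher (adjusted p = 0.000195), a bound computed with 3 counts in each adult LMPP library because all were at 0. Hmga2 rose by 4.12 ± 0.42 on the log2 scale (adjusted p = 0.000224), Arid3a by 3.45 ± 0.63 (adjusted p = 0.00529) and Hmga1 by 2.13 ± 0.13 (adjusted p = 1.08e-05). All 4 calls held under all 14 other settings. The ages did not overlap for any of them, as was so in the upward direction for 17.8% of all genes tested. A higher level in both cell types was called for Lin28b, Hmga1 and Hmga2, where 0.978% of all genes tested had both calls.

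Many genes rose more than Hmga1 did. The fitted log2 differences between fetal and adult HSC were ranked from the largest rise down, so genes that fell rank last. Lin28b ranked 128th, Hmga2 172nd, Arid3a 519th and Hmga1 674th of 14720 genes. In LMPP the ranks were 412 for Hmga2, 491 for Arid3a and 801 for Hmga1.

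**Figure D2:**
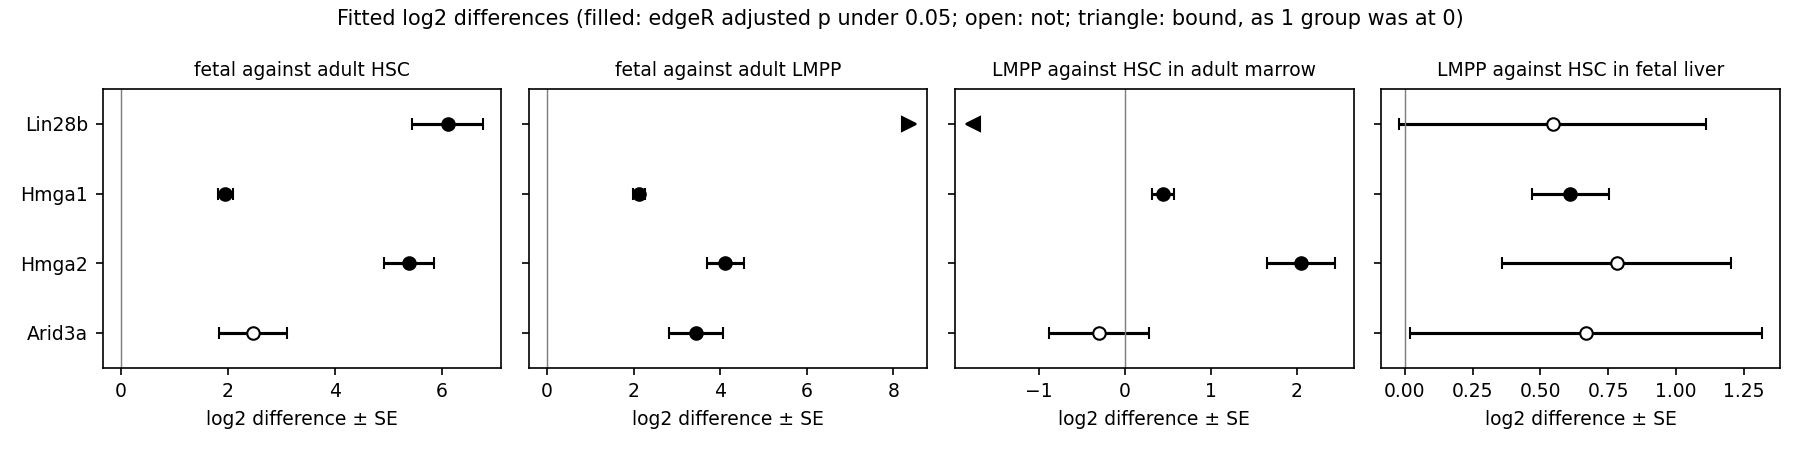
Fitted log2 differences ± SE of the 4 tested genes in the 2 age comparisons and the 2 cell type comparisons, each panel with its own scale; filled symbols have adjusted p below 0.05 and triangles are bounds where 1 group was at 0. All age differences lie above 0, and Lin28b in LMPP is drawn at its bound of 331-fold.

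**Figure D3:**
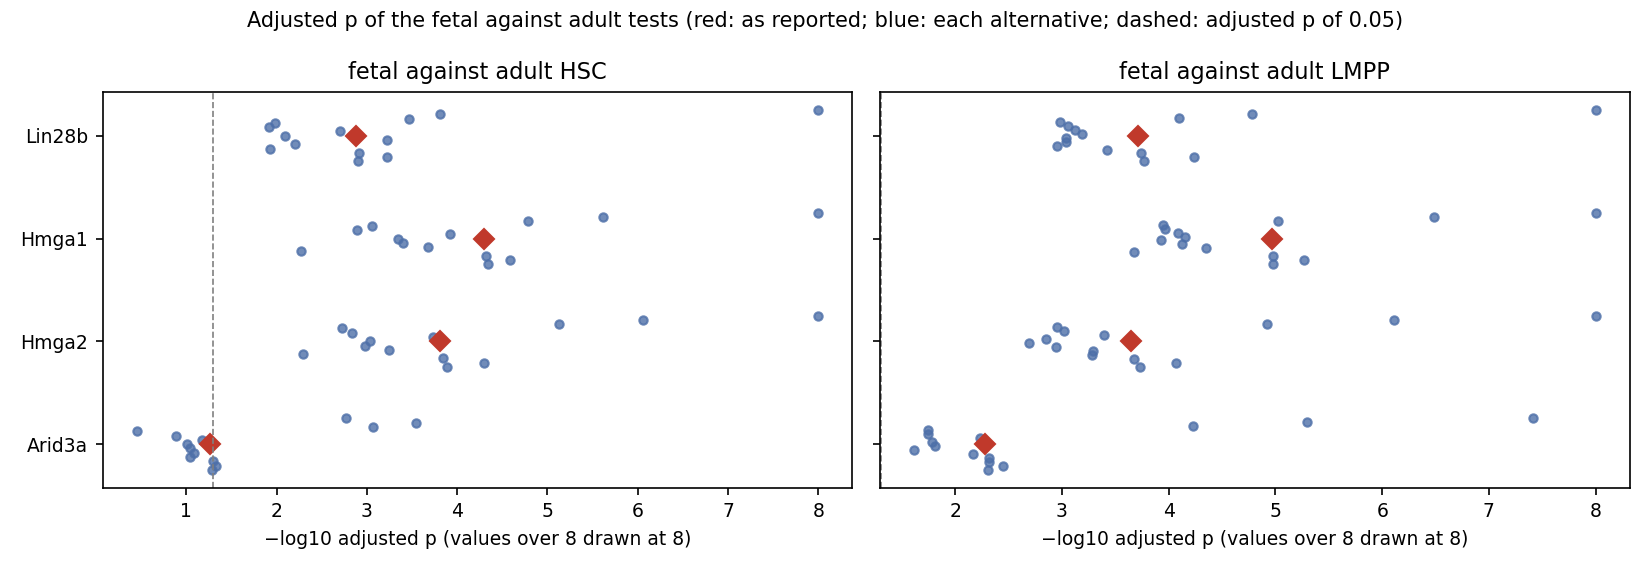
Adjusted p (as −log10, larger to the right, values over 8 drawn at 8) of the 2 age comparisons for the 4 tested genes as reported (red) and under each other setting (blue), with the threshold of 0.05 dashed. Arid3a in HSC has settings on both sides of the threshold, from 0.000284 to 0.353, whereas all points of the other 3 genes lie beyond it.

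The fitted differences between cell types were smaller than those between ages for Hmga1, Hmga2 and Arid3a. Between adult LMPP and adult HSC, Hmga2 and Hmga1 were higher in LMPP and Lin28b was lower, where 7.76% of all genes tested were higher and 9.33% lower. Hmga2 rose by 2.05 ± 0.40 on the log2 scale (adjusted p = 0.00595), a call that all 14 other settings kept. Hmga1 rose by 0.44 ± 0.13 (adjusted p = 0.0368). Its adjusted p was above 0.05 in 6 of 14 other settings, among them the fit on the compared groups alone (0.139) and those without adult HSC 2 (0.0904), adult HSC 3 (0.0633), adult LMPP 1 (0.142) or adult LMPP 2 (0.0717). Lin28b was at least 3.41-fold lower in adult LMPP (adjusted p = 0.0148), a bound that was 1.55-fold without adult HSC 1. With the compared groups alone it did not pass the filter on low counts. Arid3a differed by -0.31 ± 0.58 (adjusted p = 0.796), and by 0.042 without adult LMPP 3.

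In fetal liver only Hmga1 passed the test between LMPP and HSC, where 8.21% of all genes tested were higher in LMPP and 9.85% lower. It rose by 0.61 ± 0.14 on the log2 scale (adjusted p = 0.0164), and the adjusted p was 0.0778 without fetal HSC 1, 0.164 without fetal HSC 2 and 0.0559 without fetal LMPP 2. Hmga2 differed by 0.78 ± 0.42 (adjusted p = 0.228), Arid3a by 0.67 ± 0.65 (adjusted p = 0.514) and Lin28b by 0.55 ± 0.57 (adjusted p = 0.547). Fetal LMPP 1 was the lowest library of its group for all 3 of these genes. Without the 3 libraries that stood apart Hmga2 differed by 1.00 (adjusted p = 0.00533) and Arid3a by 0.97 (adjusted p = 0.0106).

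Whether the age difference itself differed between LMPP and HSC was tested as an interaction. None of the 4 genes was called, where 0.931% of all genes tested were, and 2 of the 4 had an unadjusted p below 0.05. The difference between the age effects was -1.27 ± 0.56 on the log2 scale for Hmga2 (adjusted p = 0.378), 0.97 ± 0.87 for Arid3a (adjusted p = 0.734) and 0.17 ± 0.19 for Hmga1 (adjusted p = 0.811). For Lin28b, whose adult LMPP libraries were at 0, the interaction had adjusted p = 0.0977. It was called with DESeq2 (adjusted p = 0.000797), without the 3 libraries that stood apart (0.0361) and with a term for them (0.0239).

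Fetal liver differs from marrow in its other cells, and markers of some of these moved with age. Of 11 hepatocyte markers, all were counted in fetal HSC and fetal LMPP, and 5 were at 0 in each adult group, Alb among them. Their summed level was 58.2 to 85.7 CPM in adult HSC, 152 to 205 in fetal HSC, 221 to 284 in adult LMPP and 125 to 230 in fetal LMPP, so it was higher in fetal than adult HSC but not in fetal LMPP, where Trf made up most of the adult level. The 11 erythroblast markers summed to 102 to 212 CPM in adult HSC, 1024 to 1152 in fetal HSC, 47.0 to 105 in adult LMPP and 226 to 495 in fetal LMPP. The 10 endothelial and stromal markers summed to 26.8 to 66.2 CPM in adult HSC, 98.7 to 126 in fetal HSC, 75.9 to 165 in adult LMPP and 62.4 to 103 in fetal LMPP, and were thus higher in fetal HSC without overlap. The summed level of 9 markers of B, T and NK cells was lower in both fetal groups. In HSC it was 54.2 to 120 CPM in adult and 7.92 to 8.46 CPM in fetal libraries. In LMPP it was 259 to 366 CPM in adult and 42.1 to 57.0 CPM in fetal libraries. Nkg7 made up most of this sum in every group. Some others went the other way, such as Cd79a, with means of 1.17 CPM in adult and 5.55 CPM in fetal LMPP. The summed level of 9 macrophage markers overlapped in HSC. It was higher in fetal LMPP (80.2 to 173 CPM) than in adult LMPP (68.9 to 77.9 CPM). Csf1r made up most of the fetal sum, with means of 32.8 CPM in adult and 114 CPM in fetal LMPP. Of the 9 markers, 0 were called higher in fetal LMPP and 2 lower, with a median log2 difference of -1.39. Of all genes tested, 7.08% were higher and 8.29% lower there. The part of other cells in the age differences of Lin28b, Hmga1, Hmga2 and Arid3a was not tested. In bulk RNA, fewer cells with a transcript and less RNA per cell cannot be told apart.

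Reads of near-identical copies of Hmga1 elsewhere could be split or lost by the authors' counting, which makes its absolute level uncertain. A line of the table that overlaps Hmga1 shares its reads and is no independent measurement.

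Genes around the let-7 circuit were described by lists. Of 32 messenger RNAs widely described as let-7 targets, other than the 5 genes, 29 were tested. In HSC 4 of them rose with fetal origin and 1 fell (median log2 difference 0.52, against 0.00 over all genes), where 2.07% of all genes tested were higher and 2.89% lower. In LMPP 11 rose and none fell (median 0.68), where 7.08% were higher and 8.29% lower. The HSC count of 5 was 10 with DESeq2, 15 without the 3 libraries that stood apart and 12 with a term marking them. In those last 2 settings the LMPP count was 18 and 17. Calls over all genes also grew in these settings. In HSC they were 655 higher and 889 lower of 14699 genes with DESeq2 (304 and 425 of 14720 as reported). They were 1096 and 1241 of 14439 without the 3 libraries, and 956 and 967 of 14720 with the term. In LMPP the last 2 settings called 2195 and 2215, and 2666 and 2319 (1042 and 1221 as reported). Among the called targets the RNA-binding Igf2bp proteins had the largest differences in both comparisons. Igf2bp1 was at 0 in all 6 adult libraries and at 75.8 ± 1.59 CPM in fetal HSC (SD, n = 2) and 127 ± 39.2 CPM in fetal LMPP (SD, n = 3), which is at least 937-fold and 1141-fold higher (adjusted p = 0.000131 and 4.93e-05). Igf2bp3 rose by 5.21 and 6.23 and Igf2bp2 by 3.83 and 5.42 on the log2 scale in HSC and LMPP.

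The Myc genes, which encode growth-promoting transcription factors, did not follow that pattern in both cell types. Myc fell by 1.64 ± 0.17 on the log2 scale in fetal HSC (adjusted p = 0.00045), from 373 to 522 CPM in the adult libraries to 139 and 154 CPM in the fetal ones, and differed by -0.25 ± 0.14 in LMPP (adjusted p = 0.280). Mycn rose by 2.34 ± 0.21 in fetal LMPP (adjusted p = 0.000103) and differed by 0.41 ± 0.22 in HSC (adjusted p = 0.374). Ccnd1, encoding cyclin D1, rose by 1.27 in HSC and 1.56 in LMPP. Other targets called in LMPP included Arid3b, Cdc34, E2f5, Nras and Hras, with log2 differences of 0.54 for Nras to 2.40 for Arid3b.

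A second list held 24 genes of the machinery that makes and degrades let-7. Of these, among them those for Drosha, Dicer and the terminal uridylyl transferases Tut4 and Tut7 that act with Lin28, 23 were tested. None was called in HSC (1 had an unadjusted p below 0.05; median 0.20), and 1 was higher in LMPP (median -0.03), where the shares of all genes tested are those given for the let-7 targets. That gene was Hnrnpa1, whose product binds the let-7a precursor, at 489 ± 66.5 CPM in adult and 1161 ± 210 CPM in fetal LMPP (SD, n = 3 and 3), a rise of 1.25 ± 0.19 on the log2 scale (adjusted p = 0.00214). With DESeq2 1 gene was called in HSC. Without the 3 libraries that stood apart the calls numbered 3 in HSC and 9 in LMPP, so the count of 0 belongs to this fit. Calls over all genes grew in that setting too, to the numbers given for the let-7 targets.

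**Figure D4:**
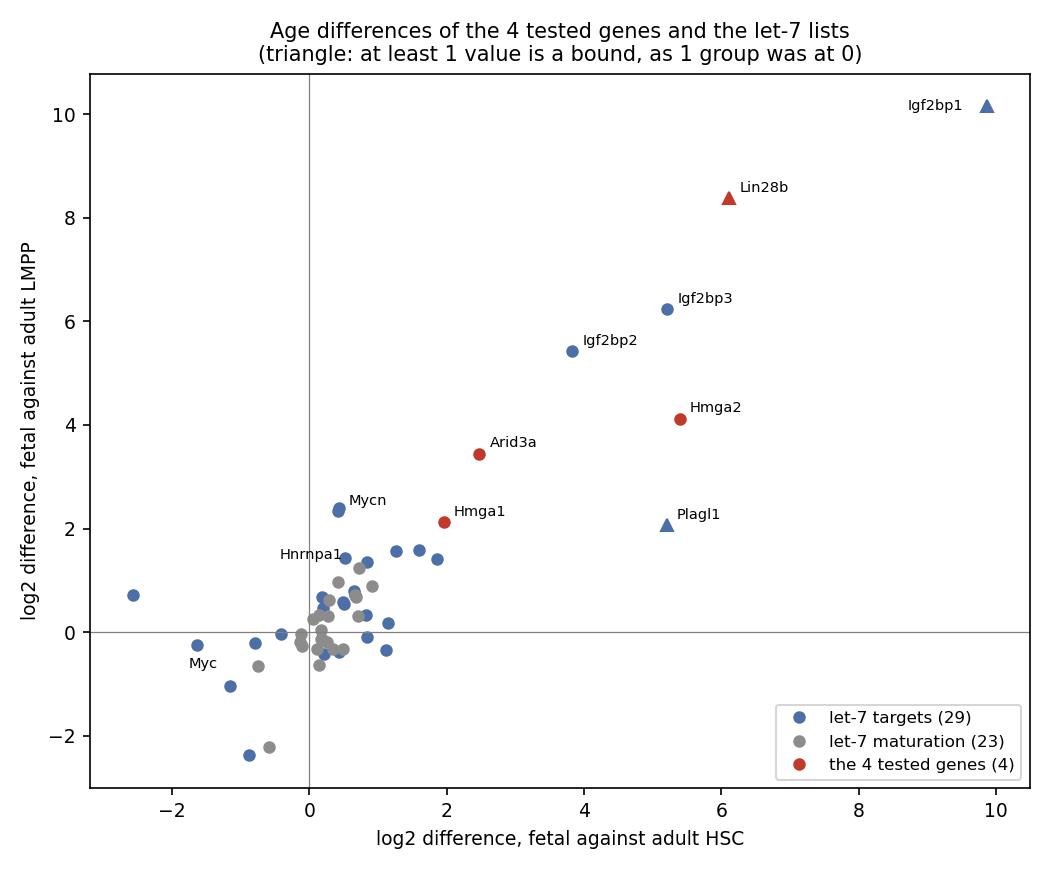
Log2 difference of each gene between fetal and adult HSC (x axis) and between fetal and adult LMPP (y axis) for 29 let-7 targets (blue), 23 genes of let-7 maturation (grey) and the 4 tested genes (red); triangles have a bound in at least 1 comparison. Most grey points lie near 0, and the Igf2bp genes lie at the upper right with Lin28b, Hmga2 and Arid3a.

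Relatives of the 5 genes are read against the same shares. Their counts in other settings are read against the all-gene counts given for the let-7 targets. Of 13 tested genes with an ARID domain other than Arid3a, none was called in HSC, where 1 had an unadjusted p below 0.05 and DESeq2 called 1. In LMPP Arid3b, the closest paralog of Arid3a, rose by 2.40 ± 0.37 on the log2 scale (adjusted p = 0.00201), while Arid4a fell by 0.94 and Arid5b fell by 1.74 (adjusted p = 0.00303 and 0.00762). Of the 13, 1 was thus higher and 2 lower in LMPP, and 6 were called without the 3 libraries that stood apart. Of 11 tested lines for other high mobility group proteins that do not overlap Hmga1, none was called in HSC (1 had an unadjusted p below 0.05, and DESeq2 called 1), and 1 was called in LMPP. That gene, Hmgn3, a nucleosome-binding protein, fell by 2.48 ± 0.42 in fetal LMPP (adjusted p = 0.0036).

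Lin28b and Arid3a are described in fetal B lymphopoiesis, and 17 genes of the fetal and adult B-lymphoid programme were tested. In HSC 1 was higher and none lower (median 0.54, or 0.52 with genes at 0 in 1 group set to their bound, which moved no other list's median), and in LMPP 4 were higher and 1 lower (median 0.61), against the shares of all genes given above. The LMPP count of 5 was 3 with the replicate block and in 5 of the 6 fits that left out 1 LMPP library, all but that without fetal LMPP 1. Id3, which encodes a partner that blocks E-protein transcription factors, was the gene higher in both, by 6.31 and 6.21 on the log2 scale. In fetal LMPP Id2 rose by 2.01, the B-lineage factor Ebf1 by 3.13 (adjusted p = 0.0278) and the recombinase gene Rag1 by 2.56 (adjusted p = 0.0281). Dntt, which encodes the polymerase that adds untemplated nucleotides at antigen receptor joins, stood at 1348 ± 300 CPM in adult LMPP and at 0 in all 3 fetal LMPP libraries (SD, n = 3), at least 13864-fold lower (adjusted p = 0.000119). The Ebf1 call was kept in 7 of 14 other settings and the Rag1 call in 7 of 13.

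Across the 11 libraries the genes also moved together, as the shared age difference makes them. Pearson's r of log2 CPM between pairs of the 4 tested genes ran from 0.841 for Lin28b and Hmga2 to 0.976 for Hmga1 and Hmga2. Among 10158 genes of at least 5 CPM, the patterns most like Lin28b were those of Gga2 (0.986), Ubtd2 (0.984) and Pcbp4 (0.982). Apart from lines that overlap it, Hmga1 was nearest to Igf2bp3 (0.984) and Fabp5 (0.981), which encodes a fatty acid binding protein. Hmga2 was nearest to Fabp5 (0.981), Marcksl1 (0.980) and Hmga1 (0.976). Arid3a was nearest to Sh3bp1 (0.984), Slc16a3 (0.981) and Rflnb (0.980). The order depended on the measure. By Spearman's rank correlation Igf2bp3 was 140th for Hmga1, Gga2 70th for Lin28b and Slc16a3 44th for Arid3a. The other genes named here ranked 1st to 20th. All of these genes share libraries and depth, and the values are a description over 11 points.

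The presence of a peak did not divide the listed start sites of the 5 genes by age. Lin28b, Hmga1, Hmga2 and Arid3a each had an ATAC-seq peak within 1 kb of the start site in all 4 lists, as did 45.9% of the 25124 start sites of the table. A peak in both fetal lists and neither adult list was found at 0.505% of start sites and at none of the 5 genes. Lin28a had no peak within 1 kb in any list, like 39.5% of start sites, and none within 5 kb. With 1 list per group there is no replicate spread and no test.

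The start-site peak of Lin28b, merged over the lists, covered chr10:45469054-45470639 (mm10). It was called in the adult LMPP list, although no Lin28b count was recorded in adult LMPP, with the authors' signal value of 7.15. Within each list its −log10 q stood at the percentile of 17.1% in adult HSC, 27.5% in fetal HSC, 31.0% in adult LMPP and 40.0% in fetal LMPP. A second region in all 4 lists, chr10:45485549-45487127, lay 16.1 kb upstream. It contained the upstream end, at 45486314, of the longer span that RefSeq gives Lin28b. The −log10 q of this second region stood at the percentile of 31.9% in adult HSC, 69.4% in fetal HSC, 44.1% in adult LMPP and 59.2% in fetal LMPP. It was thus above the median q in both fetal lists and below it in both adult lists.

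The other start-site peaks covered chr17:27554949-27557425 for Hmga1, chr10:120475600-120477411 for Hmga2 and chr10:79926267-79927915 for Arid3a. By −log10 q they stood at percentiles of 38.7% to 49.8% of a list for Hmga1, 19.2% to 48.6% for Hmga2 and 18.3% to 47.8% for Arid3a. At the listed start sites none of the 4 genes had a peak above the median q of any list, where 33.6% of all start sites had one above it in all 4 lists. The region at the upstream end of the longer RefSeq span of Lin28b is not counted here.

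The sequences under these peaks differ in composition. RefSeq's promoter table (GRCm38.p6, the assembly of mm10) holds 300-base windows for 4 of the 5 genes. The windows of Lin28b, Hmga1 and Hmga2 were covered by peaks of all 4 lists over all 300 bases, and that of Lin28a over none. GC content was 39.0% for Lin28b, 57.7% for Hmga2 and 74.0% for Hmga1 (median of 32851 promoters 52.7%), with 8, 12 and 40 CpG dinucleotides (median 7). The 250 bases before the start site are printed for chr10:45470202-45470451 (Lin28b, minus strand), chr10:120476470-120476719 (Hmga2, minus strand) and chr17:27556324-27556573 (Hmga1, plus strand, the upstream of its 2 RefSeq start sites). Capitals mark matches on either strand to the GC box GGGCGG, the sequence CCAAT, the TATA box TATAAA, the E-box CACGTG, the GATA motif AGATAA, the RUNX motif TGTGGT or the ETS motif CCGGAAG.
Lin28b: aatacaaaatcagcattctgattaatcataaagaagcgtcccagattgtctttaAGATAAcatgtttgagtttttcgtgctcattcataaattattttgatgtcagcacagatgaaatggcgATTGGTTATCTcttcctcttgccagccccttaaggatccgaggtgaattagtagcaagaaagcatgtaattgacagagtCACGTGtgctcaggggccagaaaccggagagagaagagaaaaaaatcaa
Hmga2: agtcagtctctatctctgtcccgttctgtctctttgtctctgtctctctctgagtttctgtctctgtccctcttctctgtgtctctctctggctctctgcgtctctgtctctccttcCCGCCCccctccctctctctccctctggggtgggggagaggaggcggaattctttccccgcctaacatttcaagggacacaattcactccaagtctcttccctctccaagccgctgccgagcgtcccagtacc
Hmga1: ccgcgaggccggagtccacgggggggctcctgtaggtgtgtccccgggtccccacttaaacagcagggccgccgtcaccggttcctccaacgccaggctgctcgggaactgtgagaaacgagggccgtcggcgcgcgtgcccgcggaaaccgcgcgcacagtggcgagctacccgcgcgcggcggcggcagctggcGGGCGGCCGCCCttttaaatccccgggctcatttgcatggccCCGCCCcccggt

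Positions are counted from the start site as 0. Lin28b had 2 AGATAA matches, at -196 and -123, a CCAAT match at -128 that abuts the second of them, and a CACGTG match at -49. AGATAA was found in 11.2% of all promoter windows, CCAAT in 37.4% and CACGTG in 7.15%. The Hmga2 window had 1 GGGCGG match, at -133, and the Hmga1 window 4, at -54, -48, -12 and 14, where 35.7% of windows had at least 1. A match is a description of the letters and does not show binding.

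Away from the start sites the loci differed. Regions within 50 kb of each gene or in its body, merged over the lists, numbered 5 for Lin28a, 7 for Lin28b, 6 for Hmga1, 15 for Hmga2 and 19 for Arid3a. Around Lin28b 3 regions were in all 4 lists, and 3 were in a fetal list alone, each in 1 list: chr10:45381946-45382173 in fetal HSC, and chr10:45453990-45454431 and chr10:45473680-45473972 in fetal LMPP. Around Lin28a 3 regions were in all 4 lists and 2, at 23.1 and 24.4 kb upstream, in the LMPP lists alone. Around Hmga1 2 were in all 4 lists, 2 in adult lists alone and none in fetal lists alone. Around Hmga2, 8 regions were in adult lists alone and 3 in a fetal list alone, and 1, at the start site, was in all 4. The adult HSC list had 11 peaks there, against 5 in fetal HSC, 5 in adult LMPP and 3 in fetal LMPP. Of these, 2 in adult HSC, 2 in fetal HSC and none in LMPP were above the median q of their list, so the adult and fetal HSC lists differed there in weaker peaks. The region chr10:120432691-120433504, in the gene body, was in the HSC lists alone, at percentiles of 64.0% in adult and 72.1% in fetal HSC. Around Arid3a 8 regions were in adult lists alone, none in fetal lists alone and 5 in all 4.

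These splits are read against all 77133 merged regions, of which 28.4% were in adult lists alone, 14.0% in fetal lists alone and 30.7% in all 4. The lists differ in length, with 53068 distinct peaks in adult HSC, 48286 in fetal HSC, 50579 in adult LMPP and 37156 in fetal LMPP, so absence from the fetal LMPP list is the least informative.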

How the data were processed

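RNA-seq libraries were made with a low-input kit that does not mark strand, per the labels' protocols, so reads of antisense partners cannot be told apart. The authors deposited estimated counts over exons (HOMER, mm10, per the file headers), in steps of 0.5, and 22.5% of values were not whole. The submitters' processing notes name MACS2, Bowtie2 2.3.5, SAMtools 1.9 and Picard, besides STAR, RSEM, HOMER, Trim Galore and DESeq2. The deposited peak lists give, per peak, the authors' signal value, a score and −log10 q. Each list stands for the 2 ATAC-seq libraries of its group, per the labels, and repeated lines with the same start and end were counted once.

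The counts were rounded and tested with edgeR 4.0.16 (R 4.3.3; TMM, filterByExpr, quasi-likelihood F test) in 1 model of 4 groups over 11 libraries. Of 25124 genes 14720 were tested. Calls have Benjamini-Hochberg adjusted p below 0.05 over all genes tested. CPM come from the rounded counts and TMM. DESeq2 1.42.0, RLE scaling, other filters, subsets of libraries, a replicate block and a term for the 3 libraries that stood apart were alternatives.

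Replicate numbers were checked for pairing by the correlation of same-numbered libraries' deviations from their group means. It ran from -0.167 to 0.472 over 10 pairs and passed 0.1 in the 3 pairs of adult HSC and adult LMPP. The reported tests used no pairing, including those between these 2 groups. A replicate block over all 4 groups was among the alternatives.

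The 5 genes and all gene lists were chosen with earlier results of these data known. Of each list, the called genes with the 4 lowest p in either age comparison were named; Ccnd1, Rag1 and the remaining let-7 targets were named after their values were seen. RefSeq tables (GRCm38.p6) gave the sequences. Values of some genes of the lists are not reported here.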

Additional observations from a re-analysis of the deposited data

Results flagged for a closer look

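The let-7, ARID, high mobility group and B-lymphoid lists were searched for age differences that differed between LMPP and HSC. The lists of cell markers were left out. By the interaction test (edgeR, adjusted over all genes tested) 3 genes were called, where 0.931% of all genes tested were called. The interaction was 1.93 on the log2 scale for Mycn (adjusted p = 0.0188), whose level was 388 ± 47.1 CPM in adult HSC and 517 ± 23.3 in fetal HSC but 54.1 ± 5.86 in adult LMPP and 274 ± 82.4 in fetal LMPP (SD, n = 3, 2, 3 and 3). It was 1.39 for Myc (adjusted p = 0.0168), which was lower in fetal than adult HSC. It was -3.01 for Arid5b (adjusted p = 0.021), which stood at 6.01 ± 2.46 CPM in adult and 14.4 ± 4.28 in fetal HSC and at 17.1 ± 3.81 in adult and 5.12 ± 0.844 in fetal LMPP (SD, n = 3, 2, 3 and 3). These genes are not among Lin28a, Lin28b, Hmga1, Hmga2 and Arid3a, none of which was called in that test.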

How the results depend on the processing

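No called age or cell type difference of the 4 tested genes changed direction under any setting. Of those not called, Arid3a between adult LMPP and HSC went from -0.31 to 0.042 without adult LMPP 3. The age calls of Lin28b, Hmga1 and Hmga2 were kept throughout, while list counts moved. The counts over all genes moved as well, as given for the let-7 targets. With DESeq2 they were 1590 higher and 1817 lower of 14699 genes in LMPP. Without the 3 libraries that stood apart 15 let-7 targets were called in HSC and 18 in LMPP, with 3 and 9 of let-7 maturation, 2 and 6 ARID genes, 4 and 6 high mobility group genes, and 2 and 8 of the B-lymphoid list. With a term for those libraries the counts were 12 and 17, 2 and 6, 2 and 7, and 3 and 7 for the first 4 lists. DESeq2 called 10 let-7 targets, 1 maturation gene, 1 ARID gene, 2 high mobility group genes and 3 B-lymphoid genes in HSC, and 2 maturation and 4 high mobility group genes in LMPP.
Without the lines that overlap Hmga1, an alternative chosen after seeing the data, 0 high mobility group genes were called in HSC (1 with all lines of the list) and 1 in LMPP (2 with all lines).
Leaving out 1 library at a time gave 0 to 1 ARID genes, 0 to 1 maturation genes and 1 to 2 B-lymphoid genes in HSC, and 3 to 5 B-lymphoid genes in LMPP.
Of the 4 tested genes, 1 was called between adult LMPP and HSC with the compared groups alone (3 as reported). Between fetal LMPP and HSC 3 were called without the libraries that stood apart and 3 with the term, and 0 to 1 with 1 library left out. The interaction called 1 in each of those 2 fits and 1 with DESeq2. Calls over all genes grew in the same fits. Between fetal LMPP and HSC 2579 genes were higher and 2970 lower of 14439 without those libraries. With the term the numbers were 2357 and 2425 of 14720 (1208 and 1450 as reported). The interaction called 330 higher and 459 lower, 396 and 460, and 304 and 363 with DESeq2 (57 and 80 as reported). With the replicate block 3 B-lymphoid genes were called in LMPP, and the block changed no call of Lin28b, Hmga1, Hmga2 or Arid3a.
Restricted to peaks above the median q of each list, 0 lists held a peak within 1 kb of the listed start site of Lin28b, Hmga1, Hmga2 or Arid3a. Fetal HSC had 2 libraries, and leaving 1 out assumes that the other varies like the rest.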
